A study of Mus musculus with 6 samples.

Results

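The hnRNP, SR and PTB splicing factors were followed in cultured smooth muscle cells of the mouse pulmonary artery (mPASMCs) after knockdown of *Snhg18*. They were taken as every protein-coding gene of the deposited count table whose symbol begins with Hnrnp or with Srsf and a digit, or is *Tra2a*, *Tra2b*, *Ptbp1*, *Ptbp2* or *Ptbp3*. This gave 36 of the 55487 genes, namely 20 hnRNP genes, 13 SR genes with both Tra2 genes among them, and 3 PTB genes. Bought mPASMCs were transfected with a control siRNA (si-NC) or with siRNA against *Snhg18* (si-*Snhg18*), a long noncoding RNA gene that also hosts a small nucleolar RNA. RNA was sequenced with a stranded mRNA kit in 3 libraries of each group, which the labels number as repeats 1 to 3. The time after transfection, the oxygen level and whether the repeats were separate cultures are not given in the sources used here, so p-values measure the spread between these libraries, which may be technical. The study ties *Snhg18* to the protein Hnrnpa2b1 and to *Eno3* mRNA. By qRT-PCR and Western blot, in experiments with normoxic and hypoxic cells, it reported that Hnrnpa2b1 rose under hypoxia. In those experiments the knockdown did not change Hnrnpa2b1. The question here is whether the sequenced mRNAs of Hnrnpa2b1 and its relatives differed between the groups.

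Splicing factors of these families decide which exons of a pre-mRNA are kept. SR proteins bind exonic enhancers through RNA recognition motifs and recruit the spliceosome through a domain rich in arginine and serine, and they are moved and switched by phosphorylation of that domain. The hnRNP proteins coat nascent transcripts and often block splice sites, and several also act on mRNA export, stability and translation. PTB proteins bind pyrimidine tracts and repress exons, and in smooth muscle Ptbp1 is known as a repressor of exons used by differentiated cells. Many genes of these families limit their own mRNA by splicing in an exon that brings a premature stop codon.

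The reads were counted per gene, so the counts do not separate the isoforms that these proteins are known for. *Hnrnpa2b1* is shown as the example, because its proteins A2 and B1 differ by a single short coding exon. In GENCODE this exon is exon 2, at chr6:51467391-51467426 on the minus strand of GRCm38, and it is 36 bases long. It is held by 1 of the 6 protein-coding transcripts of the gene with a coding region. The exon is in capitals below and the 15 bases on either side of it in the spliced transcript are in lower case.
*Hnrnpa2b1*, B1 exon: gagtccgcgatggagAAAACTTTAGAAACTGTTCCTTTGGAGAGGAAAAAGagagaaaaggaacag

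The upstream sequences of 3 genes are printed for reference: *Hnrnph1* and *Hnrnpul1*, which are called different between the groups below, and *Hnrnpa2b1*. Whether these sequences bear on the mRNA levels was not tested. Each is the 250 bases before the RefSeq start site nearest to the start of the gene in the deposited table (GRCm38.p6), 5′ to 3′ along the gene. Capitals mark 4 short motifs on either strand, CCAAT with its reverse ATTGG, then GGGCGG with CCGCCC, then TATAAA with TTTATA, and last TGACGT with ACGTCA.
*Hnrnph1*, chr11:50376740-50376989, plus strand: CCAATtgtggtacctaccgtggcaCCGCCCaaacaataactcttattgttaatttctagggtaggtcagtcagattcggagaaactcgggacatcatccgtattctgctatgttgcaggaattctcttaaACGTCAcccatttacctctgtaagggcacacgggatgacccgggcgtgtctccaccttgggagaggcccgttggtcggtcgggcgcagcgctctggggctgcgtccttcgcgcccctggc
*Hnrnpul1*, chr7:25754760-25755009, minus strand: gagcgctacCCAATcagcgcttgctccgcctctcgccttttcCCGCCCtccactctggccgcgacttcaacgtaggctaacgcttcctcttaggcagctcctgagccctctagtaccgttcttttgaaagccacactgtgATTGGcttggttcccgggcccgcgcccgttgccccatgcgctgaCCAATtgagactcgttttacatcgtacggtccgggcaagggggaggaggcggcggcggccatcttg
*Hnrnpa2b1*, chr6:51469895-51470144, minus strand: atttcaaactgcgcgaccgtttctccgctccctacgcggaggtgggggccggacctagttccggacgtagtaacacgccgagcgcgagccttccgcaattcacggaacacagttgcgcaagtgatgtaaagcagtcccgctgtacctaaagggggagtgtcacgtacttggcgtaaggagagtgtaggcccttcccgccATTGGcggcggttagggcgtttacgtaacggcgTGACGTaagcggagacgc
Of the 36 genes, 33 matched a RefSeq promoter. CCAAT was found in 17 of these 33 upstream windows (51.5%), against 33.8% of the 32817 windows in the whole table. GGGCGG was in 26 (78.8%, against 32.7%), TGACGT in 9 (27.3%, against 6.46%) and TATAAA in 3 (9.09%, against 12.4%). *Hnrnph1* and *Hnrnpa2b1* each held 1 CCAAT and 1 TGACGT, *Hnrnpul1* held 3 CCAAT, and *Hnrnph1* and *Hnrnpul1* each held 1 GGGCGG. Each of the 33 genes gave 1 window, while the whole table holds every listed start site without regard to expression. The shares were therefore not matched for level or kind of promoter. A match is a run of letters and not a measured binding site.

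The libraries held between 18097718 and 25988746 counted reads, and the 36 genes together took between 0.670% and 0.686% of them. Levels are given as CPM (read counts scaled to a common library size) after TMM normalization, a scaling that evens out differences in library composition. *Snhg18* itself stood at 23.5, 22.4 and 22.2 CPM with si-NC and at 10.6, 11.2 and 9.97 CPM with si-*Snhg18* (log2 fold change -1.10, SE 0.10, adjusted p = 0.00727). *Eno3*, which encodes the muscle form of enolase, fell as well (log2 fold change -1.17, SE 0.12, adjusted p = 0.00761). These adjusted p-values, and all below unless stated, are from edgeR's quasi-likelihood test with Benjamini-Hochberg adjustment over 14531 tested genes. All 10 smooth muscle markers were tested, *Tagln* was lower (log2 fold change -0.51, adjusted p = 0.0427), DESeq2 called 4, and the list summed to 3660 to 3820 CPM with si-NC and 2750 to 3620 CPM with si-*Snhg18*. Of 8 fibroblast markers 7 were tested and none was called (1 at an unadjusted p under 0.05, none by DESeq2), and their summed level, mostly collagen, was 4580 to 5970 CPM and 2870 to 4680 CPM. Endothelial markers (8 listed, 5 tested, none called, 1 unadjusted, none by DESeq2) summed to 13.2 to 14.6 CPM and 13.8 to 16.3 CPM, and epithelial markers (6 listed, 1 tested, none called, none unadjusted, none by DESeq2) to 7.24 to 22.7 CPM and 1.19 to 7.42 CPM. Of 7 leukocyte markers 4 were tested and *Cd53* was called (lower, log2 fold change -1.10), and the list summed to 113 to 157 CPM and 71.9 to 112 CPM. *Pecam1*, *Cldn5* and *Emcn* had at most 14 reads in any library, *Ptprc*, *Adgre1* and *Cd3e* at most 8, and *Epcam*, *Cdh1*, *Krt8*, *Sftpc* and *Scgb1a1* at most 11. Other markers of these lists were expressed. Over all 6 libraries the endothelial *Cdh5* was at 9.34 to 11.1 CPM and the epithelial *Krt18* at 0.989 to 22.1 CPM. The leukocyte markers *Cd14* and *Cd53* were at 11.1 to 49.2 CPM and 50.5 to 116 CPM. DESeq2 called 16.2% of all genes it tested. With the repeat number as a term in the model, 13.6% of all tested genes were called lower and 13.6% higher. That fit called lower 5 smooth muscle markers (*Tagln*, *Cnn1*, *Des*, *Cald1* and *Myh11*) and 3 fibroblast markers (*Pdgfra*, *Col1a1* and *Col1a2*). It also called lower the endothelial *Tek*, the epithelial *Krt18* and *Cd53*, and it called higher the leukocyte marker *Cd14*. The part of these shifts in the results below was not tested, and in bulk RNA fewer cells of a type and less RNA per cell cannot be told apart.

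Knockdown of *Snhg18* left most of these mRNAs near their control level. Of 35 genes tested, *Hnrnpul1* was higher and *Hnrnph1* was lower at an adjusted p under 0.05, and 33 were not called. Over all tested genes, 3.65% were called higher and 3.71% lower, so 1 of 35 in each direction was close to the background. The median log2 fold change of the 35 was -0.04, against 0.01 for all tested genes, and 27 of the 35 (77.1%) lay within 0.2 of zero, against 43.0% of all tested genes. The 95% confidence interval excluded a 1.5-fold change in either direction for 33 of the 35. The spread between libraries was small, with a median coefficient of variation of 4.11% with si-NC and 5.78% with si-*Snhg18*, against 10.9% and 15.9% over all tested genes. The 35 genes all had an average level of at least 3.98 log2 CPM, and all tested genes include many of lower level. The shares and spreads set beside the 35 were not matched for level.

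The labels number the libraries of each group as repeats, and libraries of the same number departed from their group means together. Departures within a group depend on each other, and libraries of different numbers were not compared, so this does not establish pairing. The repeat numbers were taken as pairs on the labels alone. With the repeat number as a term in the model, 5 of the 35 genes were higher and 4 were lower. This fit called 13.6% of all tested genes higher and 13.6% lower, so these shares were again near the background. The genes added were *Hnrnpul2*, *Hnrnpf*, *Srsf9* and *Srsf11* among the higher, and *Tra2b*, *Srsf3* and *Srsf1* among the lower. The plot of fold changes gives both fits for every gene.

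**Figure D1:**
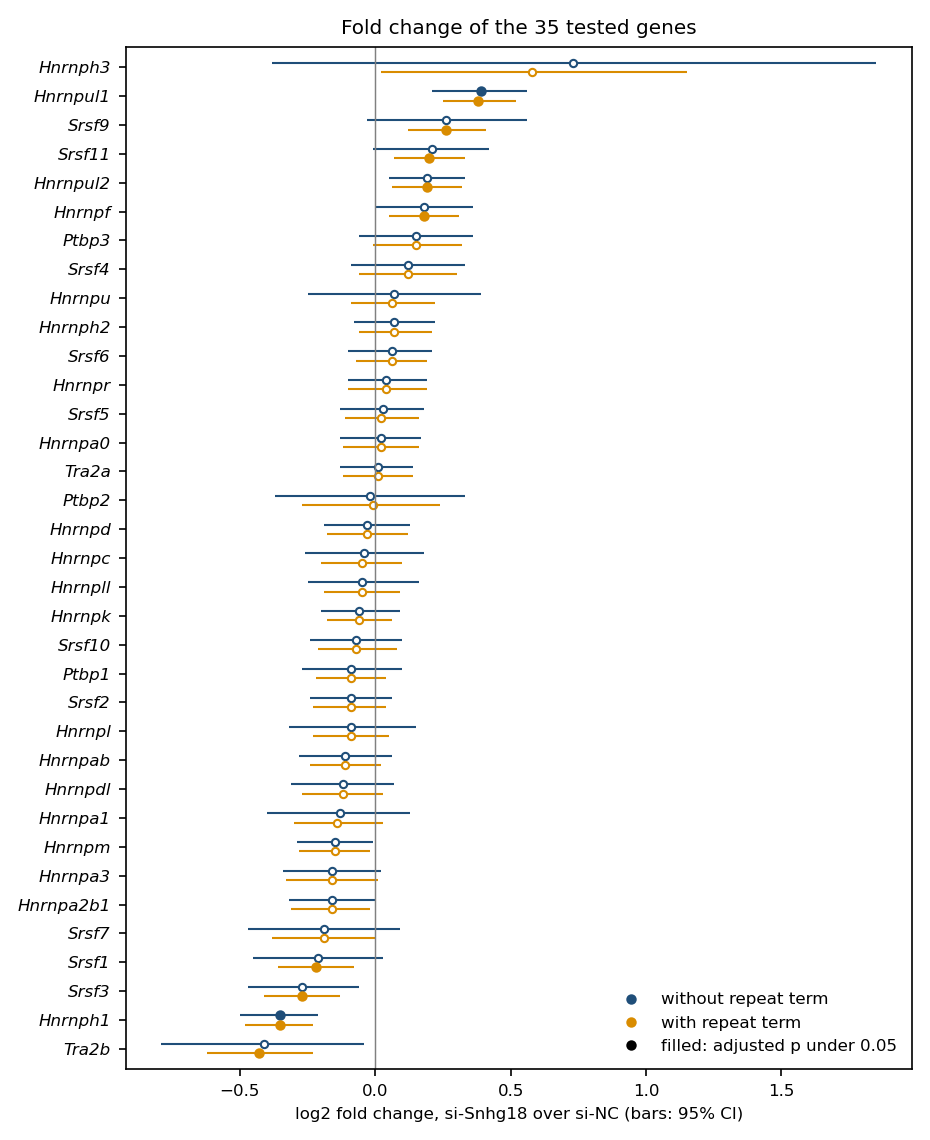
The log2 fold change (x axis, si-*Snhg18* over si-NC) of the 35 tested genes with its 95% confidence interval, from the fit without a repeat term (blue) and with it (orange), where filled points have an adjusted p under 0.05. *Hnrnph1* and *Hnrnpul1* are filled in both fits, 7 further genes only in the fit with the repeat term, and *Hnrnph3* has the widest interval.

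*Hnrnpa2b1* encodes an RNA-binding protein that takes part in splicing, in RNA transport and in the recognition of m6A-marked RNA. By the transcript length of the deposited table, its mRNA was the most abundant of the 36 per length. Its level was 554, 525 and 563 CPM in the si-NC libraries and 486, 511 and 470 CPM in the si-*Snhg18* libraries. The groups did not overlap, and the highest si-*Snhg18* value was that of repeat 2, next to the lowest si-NC value. The mean was 547 ± 19.4 CPM (SD, n = 3) with si-NC and 489 ± 20.8 CPM with si-*Snhg18*, or 89.3% of control. The log2 fold change was -0.16 (SE 0.07), with a 95% confidence interval from -0.32 to just under zero, and the adjusted p was 0.191, or 0.0926 with the repeat term. The difference was therefore not called in either fit.

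Of the other mRNAs of the A and B group, which encode proteins that package nascent RNA, none was called. *Hnrnpa1* was at 312, 327 and 291 CPM with si-NC and at 253, 326 and 270 CPM with si-*Snhg18*, and the groups overlapped through repeat 2. Its log2 fold change was -0.13 (SE 0.11, adjusted p = 0.498). *Hnrnpa3* was at 42.5, 46.0 and 45.2 CPM against 39.8, 38.6 and 41.4 CPM, which did not overlap, with an adjusted p of 0.243. *Hnrnpa0* and *Hnrnpab* had log2 fold changes of 0.02 and -0.11. *Hnrnpc*, whose protein binds uridine tracts and is, like Hnrnpa2b1, studied as a reader of m6A, was at 230, 217 and 226 CPM with si-NC and at 244, 196 and 214 CPM with si-*Snhg18*, so its groups overlapped (log2 fold change -0.04, 95% confidence interval -0.26 to 0.18).

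*Hnrnph1* fell. Its protein binds runs of guanine and can enhance or silence exons. It was at 267, 252 and 266 CPM with si-NC and at 208, 201 and 207 CPM with si-*Snhg18*, so each si-*Snhg18* library lay well under the lowest si-NC library. The mean dropped from 262 ± 8.37 to 205 ± 4.07 CPM (SD, n = 3), or to 78.4% of control, with a log2 fold change of -0.35 (SE 0.06, adjusted p = 0.0252, and 0.00406 with the repeat term). The gene lies at chr11:50376990-50386528 on the plus strand. The call held under all 7 other settings with 6 libraries, with an adjusted p of at most 0.0377. With 1 library left out the log2 fold change stayed between -0.38 and -0.34, but the adjusted p was under 0.05 only without si-*Snhg18* 2 (0.0178) and ran from 0.0661 to 0.151 without any other library.

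The relatives of *Hnrnph1* were not lower. *Hnrnpf*, which encodes another protein that binds guanine runs, was at 214, 228 and 205 CPM with si-NC and at 234, 261 and 237 CPM with si-*Snhg18*, so its groups did not overlap and si-*Snhg18* was the higher. Its log2 fold change was 0.18 (SE 0.08, adjusted p = 0.208), and it was called only with the repeat term (0.0492). *Hnrnph2* was at 122, 118 and 127 CPM against 134, 126 and 127 CPM (log2 fold change 0.07, SE 0.06, adjusted p = 0.526). The number of *Hnrnph1* reads for each *Hnrnph2* read, a ratio that library scaling cannot alter, was 2.19, 2.13 and 2.09 with si-NC and 1.56, 1.60 and 1.64 with si-*Snhg18*. For each *Hnrnpf* read there were 1.25, 1.11 and 1.30 *Hnrnph1* reads with si-NC and 0.889, 0.768 and 0.873 with si-*Snhg18*. For both ratios the si-*Snhg18* values all lay under the si-NC values. *Hnrnph3* had the largest fitted change of the 35 genes, a log2 fold change of 0.73 (SE 0.46, adjusted p = 0.377), and is named for that after its values were seen. It was at 19.4, 13.8 and 22.9 CPM with si-NC and at 50.1, 13.1 and 29.9 CPM with si-*Snhg18*, so repeat 1 stood far above the controls, repeat 3 above them and repeat 2 just under the lowest of them. Without si-*Snhg18* 1 its log2 fold change was 0.20, and without si-*Snhg18* 2 it was 1.10 (adjusted p = 0.0361).

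*Hnrnpul1* rose. It encodes a nuclear protein of the hnRNP U group, which has a role in RNA processing and in the response to DNA breaks. It was at 193, 185 and 189 CPM with si-NC and at 263, 227 and 251 CPM with si-*Snhg18*, so the lowest si-*Snhg18* library, repeat 2, still lay above the highest control. The mean went from 189 ± 3.56 to 247 ± 18.4 CPM (SD, n = 3), or to 131% of control, with a log2 fold change of 0.39 (SE 0.07, adjusted p = 0.0341, and 0.00417 with the repeat term). The gene lies at chr7:25721165-25754757 on the minus strand. Its call too held under the 7 other settings with 6 libraries (adjusted p at most 0.0474), and with 1 library left out it held only without si-*Snhg18* 2 (0.00883) and had an adjusted p from 0.0864 to 0.161 otherwise.

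*Hnrnpul2*, the closest relative of *Hnrnpul1*, was at 171, 176 and 177 CPM with si-NC and at 204, 201 and 195 CPM with si-*Snhg18*. The groups did not overlap, and the spread within each was under 5 CPM (SD 3.08 and 4.25). Its log2 fold change was 0.19 (SE 0.06, adjusted p = 0.100), and it was called with the repeat term (0.0402) and by DESeq2 (0.0248), which called 3 of the 35 genes and 16.2% of all genes it tested. *Hnrnpu*, whose protein attaches chromatin to the nuclear scaffold, was at 703, 607 and 698 CPM with si-NC and at 811, 583 and 715 CPM with si-*Snhg18*. Its groups overlapped and repeat 2 was the lowest in both (log2 fold change 0.07, SE 0.13, adjusted p = 0.779). Reads of *Hnrnpul1* for each read of *Hnrnpul2* were 1.12, 1.05 and 1.07 with si-NC and 1.29, 1.13 and 1.29 with si-*Snhg18*, and for each read of *Hnrnpu* 0.274, 0.305 and 0.271 against 0.324, 0.389 and 0.351, so neither ratio overlapped between the groups.

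The 7 hnRNP genes not yet given, *Hnrnpd*, *Hnrnpdl*, *Hnrnpk*, *Hnrnpl*, *Hnrnpll*, *Hnrnpm* and *Hnrnpr*, were not called in either fit, and their log2 fold changes ran from -0.15 (*Hnrnpm*) to 0.04 (*Hnrnpr*). *Hnrnpm*, whose protein binds sites rich in guanine and uridine, was at 205, 208 and 200 CPM against 188, 181 and 183 CPM, without overlap (adjusted p = 0.171, and 0.0806 with the repeat term). *Hnrnpk*, whose protein binds runs of cytosine, was at 525, 537 and 512 CPM against 513, 510 and 487 CPM. In all, 4 hnRNP genes had si-*Snhg18* libraries that all lay under the controls and 3 had them all above. Over the 35 genes the counts were 6 lower and 3 higher, where 15.5% and 15.4% of all tested genes had such groups.

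**Figure D2:**
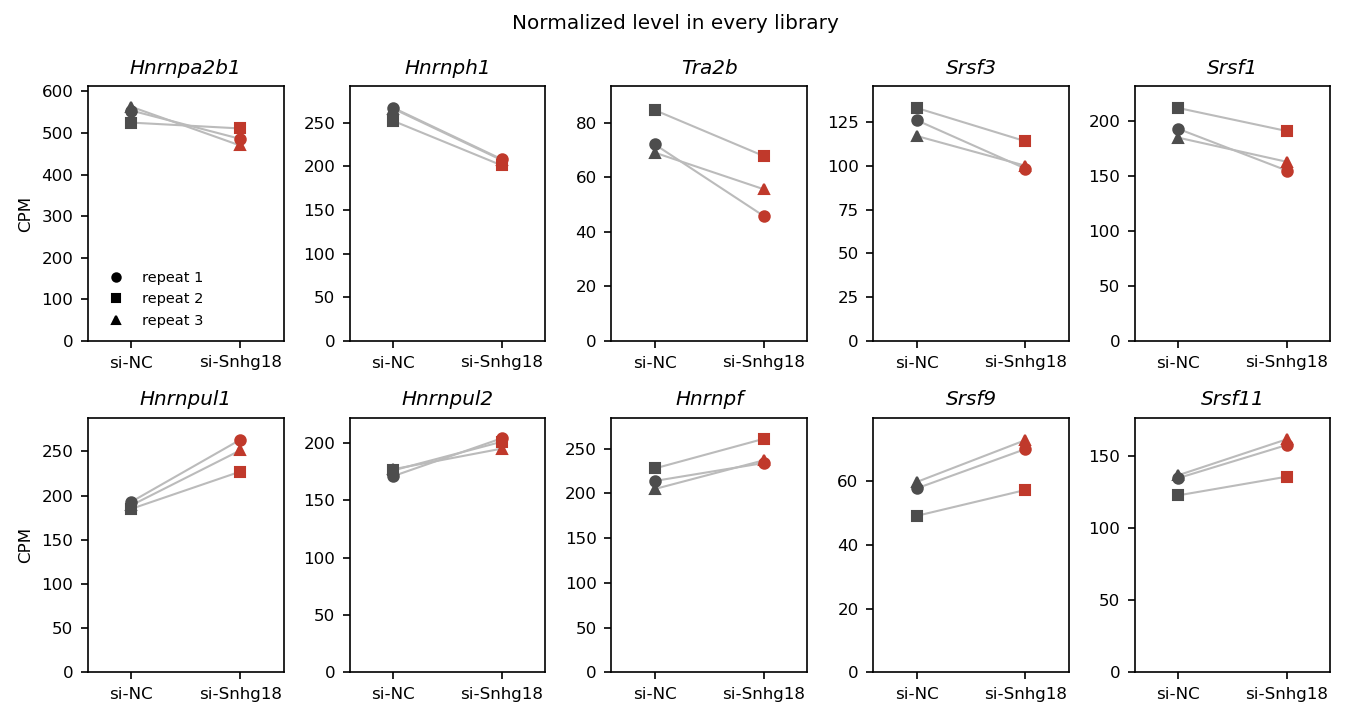
CPM (y axis, from 0) in every library for *Hnrnpa2b1* and for the 9 genes called in at least 1 of the fits, with grey lines joining libraries of the same repeat number. The 3 lines of each panel run the same way, and repeat 2 lies apart from repeats 1 and 3 for *Tra2b*, *Srsf1*, *Srsf9* and *Srsf11* in both groups.

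None of the 12 tested SR and Tra2 genes was called without the repeat term, and none by DESeq2. Without the repeat term 2 had an unadjusted p under 0.05 in edgeR's test, as had 3613 of all 14531 tested genes. With the repeat term 5 were called (41.7%, against 27.2% of all tested genes), in both directions. *Tra2b*, which encodes an activator of exons with GAA-rich enhancers, had the lowest fitted fold change of the 35 genes. It was at 72.1, 84.7 and 69.1 CPM with si-NC and at 45.9, 67.9 and 55.7 CPM with si-*Snhg18*, so the groups were separate but the highest si-*Snhg18* value, repeat 2, came close to the lowest control. The mean was 75.3 ± 8.23 against 56.5 ± 11.0 CPM (SD, n = 3), with a log2 fold change of -0.41 (SE 0.16, adjusted p = 0.168) and of -0.43 (SE 0.08, adjusted p = 0.0105) with the repeat term. Its close relative *Tra2a* was at 103, 102 and 104 CPM against 102, 103 and 105 CPM (log2 fold change 0.01, 95% confidence interval -0.13 to 0.14). The ratio of *Tra2b* to *Tra2a* reads was 0.703, 0.831 and 0.665 with si-NC and 0.451, 0.658 and 0.528 with si-*Snhg18*, which did not overlap.

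*Srsf3*, the gene of the smallest SR protein, which also acts in mRNA export, was at 126, 133 and 117 CPM with si-NC and at 98.4, 114 and 100 CPM with si-*Snhg18*. The groups did not overlap, with repeat 2 the highest in each. The log2 fold change was -0.27 (SE 0.09, adjusted p = 0.117, and 0.0147 with the repeat term). *Srsf7*, its nearest relative, was at 60.8, 68.3 and 54.5 CPM against 47.8, 59.2 and 54.2 CPM, with a log2 fold change of -0.19 that was not called, and the ratio of *Srsf3* to *Srsf7* reads overlapped between the groups.

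*Srsf1*, the archetype of the SR proteins, was at 193, 212 and 185 CPM with si-NC and at 155, 191 and 163 CPM with si-*Snhg18*. The groups overlapped because repeat 2 was the highest of each, and every si-*Snhg18* library lay under the control library of its own number. The log2 fold change was -0.21 (SE 0.10, adjusted p = 0.249), and with the repeat term -0.22 (SE 0.06, adjusted p = 0.0337). *Srsf9*, whose protein has a short serine and arginine domain and is related to Srsf1, ran the other way, at 57.6, 49.0 and 59.6 CPM against 69.9, 57.1 and 72.7 CPM. These groups overlapped as well, with repeat 2 the lowest of each, and the log2 fold change was 0.26 (SE 0.12, adjusted p = 0.245, and 0.0202 with the repeat term). *Srsf11* was at 135, 123 and 137 CPM against 158, 136 and 162 CPM, with repeat 2 again the lowest of each and overlapping groups (log2 fold change 0.21, SE 0.09, adjusted p = 0.225, and 0.0345 with the repeat term).

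The 2 SR mRNAs of highest level per length were near their control level. *Srsf5* was at 164, 170 and 167 CPM against 175, 174 and 161 CPM (log2 fold change 0.03, 95% confidence interval -0.13 to 0.18). *Srsf2*, whose protein acts in the nucleus and binds sites with guanine or cytosine, was at 196, 191 and 181 CPM against 182, 172 and 179 CPM (log2 fold change -0.09, 95% confidence interval -0.24 to 0.06). For the remaining 3 tested genes, *Srsf4*, *Srsf6* and *Srsf10*, log2 fold changes ran from -0.07 to 0.12 and none was called. *Srsf12* did not pass the filter on low counts, with 14, 9 and 13 reads in the si-NC libraries and 8, 8 and 1 reads in the si-*Snhg18* libraries, and was not tested.

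Of the 3 PTB genes none was called in either fit, none had an unadjusted p under 0.05 without the repeat term and none was called by DESeq2. *Ptbp1*, the form of most cells other than neurons, was at 451, 420 and 453 CPM with si-NC and at 447, 386 and 415 CPM with si-*Snhg18*, and the groups overlapped (log2 fold change -0.09, 95% confidence interval -0.27 to 0.10). *Ptbp3* was at 75.2, 91.1 and 77.9 CPM against 90.5, 90.7 and 89.7 CPM, where si-NC 2 lay above the si-*Snhg18* libraries (log2 fold change 0.15, -0.06 to 0.36). *Ptbp2*, the form known from neurons, was at 14.1, 18.8 and 14.6 CPM against 14.5, 16.6 and 15.7 CPM (log2 fold change -0.02, -0.37 to 0.33). The ratio of *Ptbp2* to *Ptbp1* reads ran from 0.0313 to 0.0447 over all 6 libraries.

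In all, 14 read ratios between related genes were computed for pairs picked with earlier results of these data known. In 5 of them, the ratios of *Hnrnph1* to *Hnrnph2*, *Hnrnph1* to *Hnrnpf*, *Hnrnpul1* to *Hnrnpul2*, *Hnrnpul1* to *Hnrnpu* and *Tra2b* to *Tra2a*, the groups did not overlap. Each of the 5 had p = 0.1 in a two-sided exact permutation test, the smallest that 3 against 3 libraries can give. After Benjamini-Hochberg adjustment over the 14 this was 0.28. The *Hnrnph1* ratios share their numerator, as do the *Hnrnpul1* ratios, and both genes were already called above. These ratios are therefore not results separate from those calls or from each other. The ratio of *Hnrnpa2b1* to *Hnrnpa1* (1.77 ± 0.164 with si-NC and 1.74 ± 0.177 with si-*Snhg18*, SD, n = 3) and its ratio to *Hnrnpa3* (12.3 ± 0.811 and 12.3 ± 0.945) differed between the groups by less than the spread of the libraries.

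**Figure D3:**
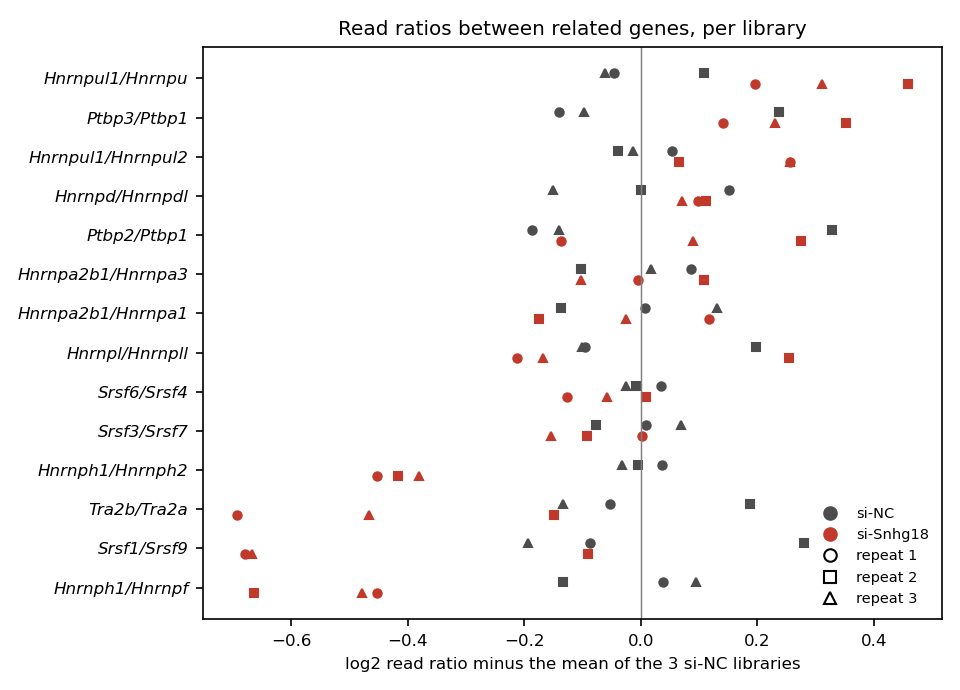
Log2 ratio of reads between 14 pairs of related genes in each library, relative to the mean of the 3 si-NC libraries (x axis), with the marker giving the repeat number. The red si-*Snhg18* markers lie apart from the grey si-NC markers for the 2 *Hnrnph1* ratios, the 2 *Hnrnpul1* ratios and *Tra2b*/*Tra2a*, and the markers of the other pairs overlap.

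Levels of different genes were set in order per length, as CPM per kilobase of the transcript length given in the deposited table. On this scale the si-NC mean was highest for *Hnrnpa2b1* (332 ± 11.8, SD, n = 3), then *Hnrnpa1* (242 ± 14.3) and *Hnrnpu* (235 ± 18.9), and the last pair did not differ beyond their spread. *Hnrnpa2b1* was also the highest with si-*Snhg18* (297 ± 12.6), while *Hnrnpu* (247 ± 40.2) and *Hnrnpa1* (220 ± 29.8) changed places within their spread. Among the SR genes the si-NC order was *Srsf5* (109 ± 1.92), *Srsf2* (99.6 ± 3.89) and *Srsf3* (48.0 ± 3.03), and among the PTB genes *Ptbp1* (139 ± 5.73), *Ptbp3* (11.9 ± 1.25) and *Ptbp2* (4.19 ± 0.678). The length used is that of the longest coding transcript in GENCODE for 27 of the 36 genes. With that length for all of them, *Hnrnpa2b1* stayed first (317), and *Hnrnpab* (199) and *Hnrnpk* (177) came next. *Hnrnpa1* followed (162), *Hnrnpu* was at 87.6, and *Tra2a* (57.1) passed *Srsf3* (48.0) among the SR genes. Merged over all GENCODE transcripts, the exons of *Hnrnpa2b1* span 6584 bases and those of *Hnrnpab* 2782. Their si-NC means were 547 and 470 CPM. By that merged length *Hnrnpab* would stand above *Hnrnpa2b1*, so the first place depends on the length used. *Hnrnpr*, last of the tested genes at 3.74, has a listed length of 21452 bases, which bears on its place.

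**Figure D4:**
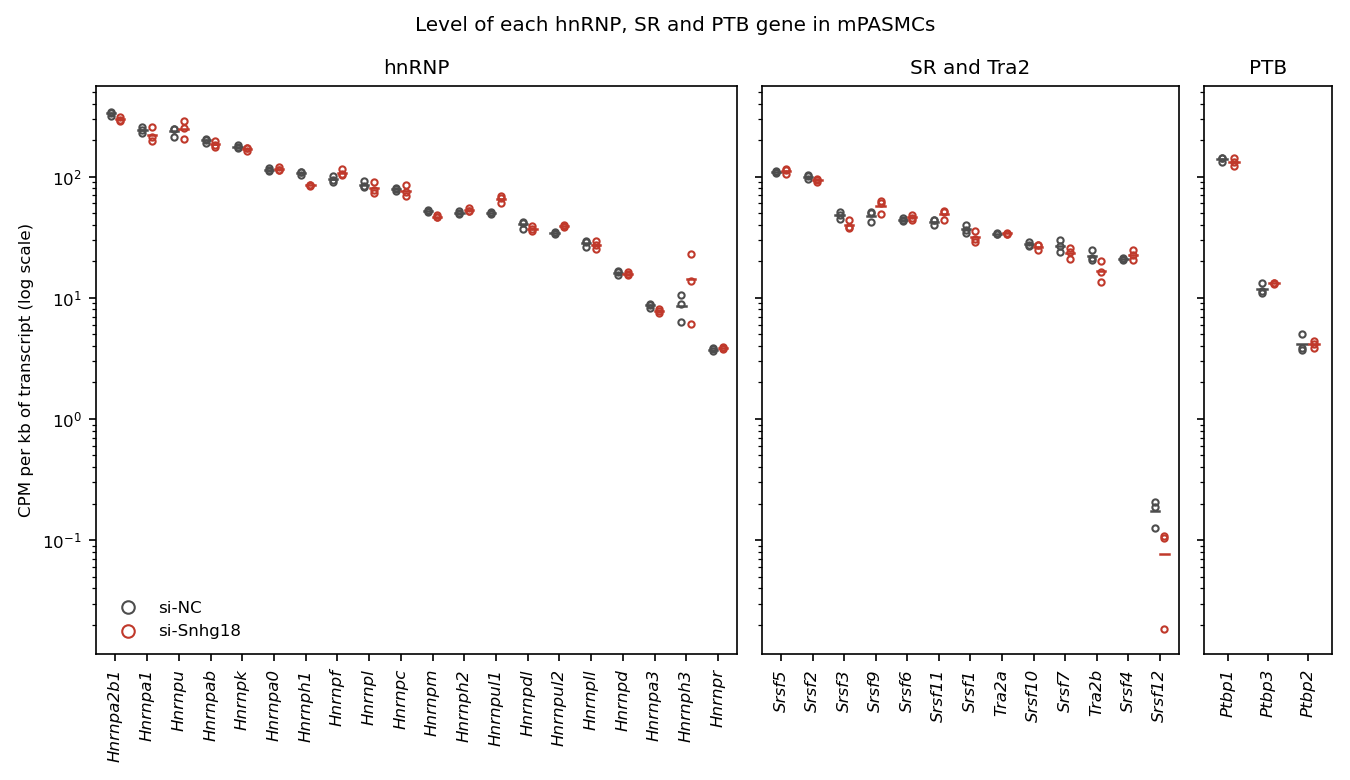
Level of each of the 36 genes in CPM per kilobase of transcript (log axis), ordered by the si-NC mean within the hnRNP, SR and PTB genes, with a circle for each library and a bar for each group mean. The 2 groups nearly coincide for most genes, *Hnrnpa2b1* is at the top, *Hnrnph3* has the widest si-*Snhg18* spread of the tested genes, and *Srsf12* lies far under the others.

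Annotated transcripts that carry a premature stop (nonsense-mediated decay in GENCODE) were listed for 24 of the 36 genes, against 28.3% of the 12697 tested protein-coding genes, and for 11 of the 13 SR genes. The comparison was not matched for mRNA level or for the number of annotated transcripts. *Tra2b* had 3 transcripts with a premature stop, *Srsf3*, *Srsf1* and *Hnrnpa2b1* had 2 each, and *Hnrnph1* had none. Which transcript the reads came from was not analysed here. For 20 of the 36 genes no exon overlaps an exon of another gene, and these include *Hnrnpa2b1*, *Hnrnph1*, *Hnrnpul1*, *Tra2b* and *Srsf3*. The strand setting of the counting is not given in the sources used here. On the opposite strand, exons of *Srsf2* overlap *Mfsd11*, which had 1501 to 3029 reads in a library, and exons of *Hnrnph3* overlap *Rufy2*, which had 447 to 865 reads beside 337 to 1267 for *Hnrnph3* itself. On the same strand, exons of *Hnrnpm* overlap *March2*, which had 687 to 1231 reads. The genes opposite *Srsf1* and *Hnrnpf* had at most 92 and 67. Processed pseudogenes named after these genes had at most 4 reads in a library, while other unnamed copies could still share reads with their parents.

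Repeat 2 stood apart in many of these genes, in both directions. It was the highest library of both groups for 9 of the 35 genes and the lowest of both for 13, and over all tested genes these shares were 32.2% and 29.8%. Across the 35 genes the departures of same-numbered libraries from their group means had a correlation of 0.485 for repeat 1, 0.861 for repeat 2 and 0.522 for repeat 3. Without si-*Snhg18* 2, 4 genes were called higher and 4 lower, or 8 of 35, where 22.1% of all tested genes were called. Without si-*Snhg18* 1 or any single si-NC library, or without si-*Snhg18* 3, no gene of the 35 was called, while 3 to 6 had an unadjusted p under 0.05 in edgeR's test, and 0% to 2.16% of all tested genes were called.

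The genes that work with these factors were taken from 4 lists, with 109 of 113 genes tested. Of these, 2 were higher and 3 lower without the repeat term (4.59% in all, against 7.36% of all tested genes), and 18 higher and 11 lower with it (26.6%, against 27.2%). Among 14 tested kinases, phosphatases and import receptors that act on SR and hnRNP proteins, *Ppp1cb*, a catalytic subunit of protein phosphatase 1, fell from 258 ± 3.94 to 213 ± 5.63 CPM (SD, n = 3, log2 fold change -0.27, adjusted p = 0.0427), and 13 were not called. Among the 22 SR-related proteins none was called by edgeR, 5 had an unadjusted p under 0.05, 1 was called by DESeq2, and with the repeat term 5 were higher and 2 lower. The smallest p in that list was that of *Srrm1*, a coactivator that bridges SR proteins and the spliceosome, at 121 ± 2.69 and 139 ± 3.26 CPM (log2 fold change 0.20, adjusted p = 0.0973).

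Of 39 tested genes for other regulators of alternative splicing, 2 rose and 1 fell. With the repeat term 11 rose and 6 fell, and these 17 were a larger share than the 27.2% of all tested genes. *Ewsr1*, of the FET family of RNA-binding proteins, was at 170, 161 and 171 CPM with si-NC and at 240, 209 and 225 CPM with si-*Snhg18* (log2 fold change 0.43, SE 0.07, adjusted p = 0.026). *Celf2*, whose protein opposes muscleblind proteins at many exons, was at 164, 169 and 161 CPM against 200, 228 and 218 CPM (log2 fold change 0.39, adjusted p = 0.0299). *Elavl1*, which encodes HuR, a protein that steadies mRNAs with AU-rich elements, was at 88.0, 84.2 and 84.9 CPM against 68.5, 65.1 and 67.3 CPM (log2 fold change -0.35, adjusted p = 0.0253). In each of these 3 genes the groups were well apart. Of 34 core spliceosome genes, all tested, *Snrpc*, a protein of the particle that first recognizes the donor splice site, fell from 36.3 ± 1.89 to 24.3 ± 3.72 CPM (SD, n = 3, log2 fold change -0.58, adjusted p = 0.0478), and 33 were not called. With the repeat term 1 core gene was higher and 2 were lower, a smaller share than the 27.2% of all tested genes. The medians of the 4 lists were 0.10, 0.09, -0.01 and -0.07 in the order given, beside 0.01 for all tested genes.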

How the data were processed

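Libraries of mPASMC RNA were made by the authors with a TruSeq Stranded mRNA kit. They deposited raw read counts per gene on GRCm38.p6, with a transcript length for each gene. Per the labels, HISAT2 and mm10 were used. The counting program, its strand setting and any read filter are not given in the sources used here.

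The quasi-likelihood test of edgeR 4.0.16 (glmQLFit, glmQLFTest; R 4.3.3) was fitted to these counts after filterByExpr (minimum count 10) and TMM scaling, over 14531 genes, with no repeat term in the planned fit. Intervals cover the spread between libraries. A count of 3 reads corresponds to 0.115 to 0.166 CPM, which is a conversion by the library totals and not an estimate of error. Deviations of same-numbered libraries from their group means correlated at 0.41, 0.742 and 0.359 over all tested genes. The pairing was taken from the repeat numbers in the labels, which do not state that the libraries are pairs. The tests were tried on simulated data. Alternatives were DESeq2 1.42.0, limma-voom (limma 3.58.1), RLE factors, library totals without TMM, no filter, a minimum count of 50, the repeat term and leaving out each library.

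The genes, lists, pairs and motifs were chosen with earlier results of these data known. Named in full were *Hnrnpa2b1*, genes with an adjusted p under 0.05 in either fit, and the 3 highest per length of each class. In each pathway list the genes called without the repeat term, at most 4, or else that of smallest p, were named. Other genes given with values were added after these were seen. One leukocyte marker is not reported here.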

Additional observations from a re-analysis of the deposited data

How the results depend on the processing

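With the replicate block, 5 genes were called higher and 4 lower, against 1 and 1 without it, and the pathway lists held 29 calls against 5. DESeq2 called 2 higher (*Hnrnpul1* and *Hnrnpul2*) and 1 lower, and 12 genes of the pathway lists, with 16.2% of all genes called. The other settings with 6 libraries gave 1 and 1, with 4 to 6 pathway calls. Leaving out 1 library gave 0 to 4 genes higher, 0 to 4 lower and 0 to 23 pathway calls, and the upper value of each came without si-*Snhg18* 2. Of all tested genes 22.1% were called in that fit and 0% to 2.16% in the others. Fold changes kept their sign in 447 of 455 recalculations. The exceptions were *Tra2a* without the filter on low counts (-0.003), and, with 1 library left out, *Hnrnpa0* (range -0.01 to 0.042), *Hnrnpc* (-0.132 to 0.024), *Hnrnpll* (-0.107 to 0.006), *Hnrnpu* (-0.044 to 0.186), *Ptbp2* (-0.099 to 0.118) and *Tra2a* (-0.004 to 0.022), none of which was called. The cause of these differences between settings was not tested. No scaling moved the median of all genes by 0.1 on the log2 scale. TMM and RLE scaling bring this median near zero by design, so it cannot test them. With library totals and no TMM factors it was 0.017. Isoforms could not be told apart from counts per gene.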
